A study of Homo sapiens with 12 samples.

Results

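The histone cluster genes were followed in RNA selected by poly(A) tail from OCI-AML3 cells, a cell line from human acute myeloid leukaemia that carries mutated NPM1. Members were the genes whose symbol starts with HIST1H, HIST2H, HIST3H or HIST4H and that had at least 10 counts summed over the 12 libraries. Of 73 such genes in a table of 26259 genes, 55 were members. The 18 left out comprised 9 with no count in any library and 9 with 1 to 9 counts. The 4 groups, of 3 libraries each, were the parental cells (wt) and 3 clones made by CRISPR-Cas9 editing: the CD33 KO clone, the one with CD123 KO, and a clone edited in both genes (CD33/CD123 KO, called the double KO clone). Cas9 protein and a guide RNA were delivered by electroporation, and after magnetic enrichment and cell sorting a single cell founded each clone. Each genotype therefore rests on 1 clone, and a difference between genotypes cannot be told apart from a difference between clones. No group received a drug, and all were kept in the same culture medium. CD33 is a surface lectin of myeloid cells that binds sialic acids. IL3RA is the gene of CD123, a subunit of the receptor for interleukin-3.

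The replication-dependent histone genes lie in clusters and supply histones while DNA is copied. Their usual transcript has no intron and no poly(A) tail: it ends just after a stem-loop that the stem-loop-binding protein SLBP holds, and it is made in S phase and destroyed when S phase ends. Many of these genes can also yield a longer transcript that runs past the stem-loop and receives a poly(A) tail, a form described in differentiated and non-dividing cells. Poly(A) selection is built to keep tailed RNA and to lose the tailless form. Levels below are those of RNA that came through this selection, not of all histone RNA.

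The members comprised 4 genes of the linker histone H1 and 13, 17, 9 and 12 genes of the core histones H2A, H2B, H3 and H4. Of these, 44 lie in the HIST1 cluster on chromosome 6, 7 in HIST2 and 3 in HIST3 on chromosome 1, and 1 in HIST4 on chromosome 12 (hg19). The table gives more than 1 exon for 5 members, among them HIST1H2BK (2 exons, chr6:27106072-27114637, minus strand) and HIST1H2BD (3 exons, chr6:26158349-26171576, plus strand). In the GENCODE v29 transcripts (GRCh38), 16 members had a transcript that went on for more than 100 bases past a stem-loop and 7 had one that ended nearer to it. No stem-loop was found for 7 members, and the other 25 were annotated as coding sequence only, which leaves their ends undescribed. HIST1H2BK and HIST1H1C are among those 25.

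The 3' sites below show the element that sets these genes apart, with the stem-loop of 16 bases in capitals, for 5 members whose transcript goes past it, among them the 3 of highest level and an H3 and an H4 gene, and for 3 whose transcript ends at it. They are examples and leave out members of like level, such as HIST1H2BC and HIST1H2AI.
HIST2H2BE: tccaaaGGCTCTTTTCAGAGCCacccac
HIST1H2AC: cccaaaGGCTCTTTTCAGAGCCccccta
HIST3H2A: cataaaGGCTCTTTTCAGAGCCacctac
HIST1H3H: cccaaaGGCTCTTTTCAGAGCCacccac
HIST1H4H: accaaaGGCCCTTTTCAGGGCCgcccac
HIST1H2BD: cccaaaGGCTCTTTTAAGAGCCacgcat
HIST1H2AE: accaaaGGCTCTTTTCAGAGCCacccac
HIST1H2BL: cccaaaGGCTCTTTTCAGAGCCactcac
After this element the annotated transcript ran on for 1729 bases in HIST2H2BE, 1128 in HIST1H2AC, 390 in HIST3H2A, 769 in HIST1H3H and 1655 in HIST1H4H. It ended after 51 bases in HIST1H2AE and 40 in HIST1H2BL. HIST1H2BD has both kinds: 1 transcript ended 39 bases after the stem-loop, and another of 789 bases lacked the stem-loop altogether.

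AATAAA, the usual poly(A) signal, was searched on the sense strand in the last 60 bases of each transcript. Of the 16 members with a transcript past the stem-loop, 7 had a match in such a transcript and 9 did not, HIST3H2A among the latter. Of the 7 whose transcript ends at the stem-loop, 1 had a match and 6 did not. The matches of 4 members are shown as examples, signal in capitals.
HIST2H2BE: tattgttattAATAAAgttaccaatt
HIST1H2AC: ggcatgaggtAATAAAaggtaatgca
HIST1H3H: tgtatgactaAATAAAatctgtataa
HIST1H2BD: agttataattAATAAAatctgcggag
The last of these lies in the HIST1H2BD transcript without a stem-loop. The HIST1H2BD transcript that ends near the stem-loop had its own match, 21 bases before its end, and is the 1 counted above.

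Many of the members also share short promoter elements, though not in every class. RefSeq promoters (GRCh38.p14, 250 bases before to 50 after the start) matched 44 members. TATAAA on either strand was present in 31 of 44 (70.5%), against 14.0% of 27305 genes. CCAAT on either strand was present in 37 of 44 (84.1%), against 39.7%, but in only 3 of 10 H4 members (30.0%). ATTTGCAT, the octamer bound by POU2F1, was present on either strand in 17 of 44 (38.6%), against 2.19%. It was found in 9 of 12 H2A and 7 of 11 H2B members, but in 1 of 7 H3, 0 of 4 H1 and 0 of 10 H4 members. The promoters of the member of highest level and of HIST1H2AC, which starts 241 bases from its neighbour HIST1H2BC on the other strand, are shown with these matches in capitals.
HIST1H2BK (chr6:27146809-27147108, minus strand): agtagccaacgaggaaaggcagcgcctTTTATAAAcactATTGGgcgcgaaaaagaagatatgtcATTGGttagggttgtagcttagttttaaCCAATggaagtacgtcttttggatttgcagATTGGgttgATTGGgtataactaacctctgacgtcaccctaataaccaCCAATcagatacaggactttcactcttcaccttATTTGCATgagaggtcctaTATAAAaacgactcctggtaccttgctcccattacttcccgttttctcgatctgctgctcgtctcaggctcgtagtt
HIST1H2AC (chr6:26123922-26124221, plus strand): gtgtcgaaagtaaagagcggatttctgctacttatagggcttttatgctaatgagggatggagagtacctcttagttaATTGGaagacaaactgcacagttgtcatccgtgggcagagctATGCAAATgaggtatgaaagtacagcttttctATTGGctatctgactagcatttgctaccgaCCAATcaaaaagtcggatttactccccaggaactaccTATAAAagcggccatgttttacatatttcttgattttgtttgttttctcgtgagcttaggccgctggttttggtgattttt
A match is a description of the letters and not a measured binding site.

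Total counts ran from 15583315 to 61827969 per library. Levels are given as CPM, counts scaled to a common library size after TMM scaling, and 3 counts were worth 0.0504 to 0.187 CPM. The myeloid markers held 9 of 10 at a mean of at least 5 CPM, while CD3D, CD3E, CD2, EPCAM, KRT5, KRT19, HBB, COL3A1 and CDH5 were at 0 in every library. CD33 RNA was 38.6 to 41.3 CPM in the CD33 KO clone and 40.5 to 48.3 CPM in the double KO clone, against 48.6 to 51.4 CPM in wt. IL3RA RNA was 3.05 to 4.20 CPM in the CD123 KO clone, but its 5.84 to 8.57 CPM in the double KO clone overlapped the 6.10 to 9.08 CPM of wt. An RNA level does not read an edit, so it did not check the label of that clone.

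One wt library stood apart in the histone genes. RNAs that carry no poly(A) tail (17 genes of a list of such RNAs) summed to 452 CPM in wt library 1 and to 3.33 to 11.6 CPM in the other 11 libraries. RPPH1, the RNA of ribonuclease P, was at 168 CPM there and, in wt libraries 2 and 3, at 2.25 and 1.45 CPM. RMRP, the RNA of ribonuclease MRP, was at 116, 1.62 and 0.945 CPM, and RNA45S5, the ribosomal RNA precursor, at 160.0, 3.56 and 2.08 CPM. In the same library 44 of 55 members had their highest level of all 12 libraries. That count has no share of all genes beside it and is a description only. The counts of calls against wt are therefore given with and without wt library 1. Each library was left out in turn, but the weight put on this one followed from the values above. Calls without it are thus not independent of the values tested. Its poly(A) selection was not measured, and its part in these levels was not tested.

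Among the members, the level in wt library 1 was a median of 6.41 times the mean of wt libraries 2 and 3, against 1.01 for 13965 tested genes that are not members, a further 10 such genes having no count in wt libraries 2 and 3. In the 6 members of highest level the ratio had a median of 1.40 and a range of 1.27 to 2.32. In the other 49 its median was 6.90, although HIST2H2BA (0), HIST2H2BC (0.663) and HIST4H4 (1.24), named after their values were seen, lay below those 6. HIST1H2BK (1.27), HIST1H2AC (1.34), HIST3H2A (1.36), HIST2H2BE (1.45), HIST1H2BD (1.62) and HIST1H1C (2.32) are those 6. The linker histone gene HIST1H1B was at 10.3 CPM (165 counts) in wt library 1 and, in wt libraries 2 and 3, at 0.369 and 0.189 CPM, a ratio of 36.8. HIST1H3B and HIST2H2BC, given next, were chosen after their values were seen. HIST1H1E, another linker histone gene, was at 10.8 CPM (173 counts) against 0.738 and 0.504 CPM, and the H3 gene HIST1H3B was at 4.61 CPM (74 counts) against 0.111 and 0.126 CPM. In wt library 1 HIST1H1B and HIST1H1E were thus near the level of HIST1H1C (11.6 CPM), and HIST1H1D, at 2.43 CPM, was not. In the other wt libraries HIST1H1C was several times above all of them. HIST2H2BC went the other way and was at 0.996 CPM (16 counts) in wt library 1 and at 1.37 and 1.64 CPM in the others. By class the median ratio was 12.5 for H1, 6.48 for H2A, 3.62 for H2B, 9.13 for H3 and 6.78 for H4.

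**Figure D1:**
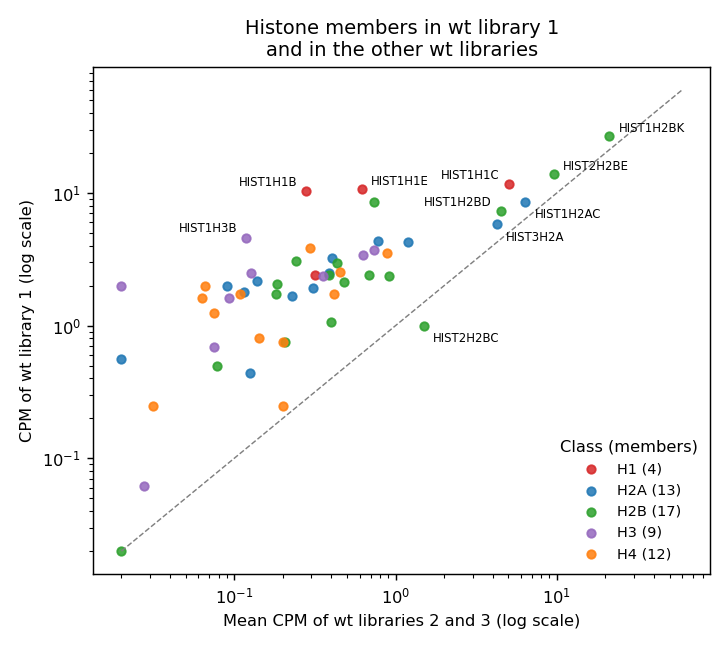
CPM of each of the 55 members in wt library 1 (vertical, log scale) against the mean of wt libraries 2 and 3 (horizontal, log scale), coloured by histone class; the dashed line marks equal levels, and values below 0.02 CPM are drawn at 0.02. Most points lie above the line, while HIST1H2BK, HIST2H2BE, HIST1H2AC and HIST3H2A lie near it and HIST2H2BC lies below it.

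Summed over the 55 members, the histone level was 195, 69.6 and 65.3 CPM in wt libraries 1, 2 and 3. It was 46.3, 48.6 and 41.5 CPM in the CD33 KO clone, 165, 163 and 172 CPM with CD123 KO and 57.8, 51.0 and 63.5 CPM in the double KO clone. The CD123 KO libraries lay close together and above all libraries but wt library 1. The group means were 109.9 ± 73.5 CPM for wt, 45.5 ± 3.65 for the CD33 KO clone, 167 ± 5.06 for the CD123 KO clone and 57.4 ± 6.24 for the double KO clone (SD, n = 3 each). The wt mean was 67.5 CPM without wt library 1. In bulk RNA, fewer cells with histone RNA and less of it per cell cannot be told apart.

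The make-up of the sum also differed between libraries. The 6 highest members held 38.0% of it in wt library 1 and 71.1% to 84.8% in the other 11 libraries. The other 49 members summed to 121, 16.6 and 16.5 CPM in wt, to 9.74 to 13.4 CPM in the CD33 KO clone, to 24.8 to 30.3 CPM with CD123 KO and to 11.5 to 16.9 CPM in the double KO clone. H2B genes were the largest class in every library, with 114 ± 2.54 CPM in the CD123 KO clone and 25.1 ± 1.46 CPM in the CD33 KO clone. H3 and H4 genes summed to 3.83 ± 0.241 and 4.89 ± 0.946 CPM in the CD123 KO clone.

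**Figure D2:**
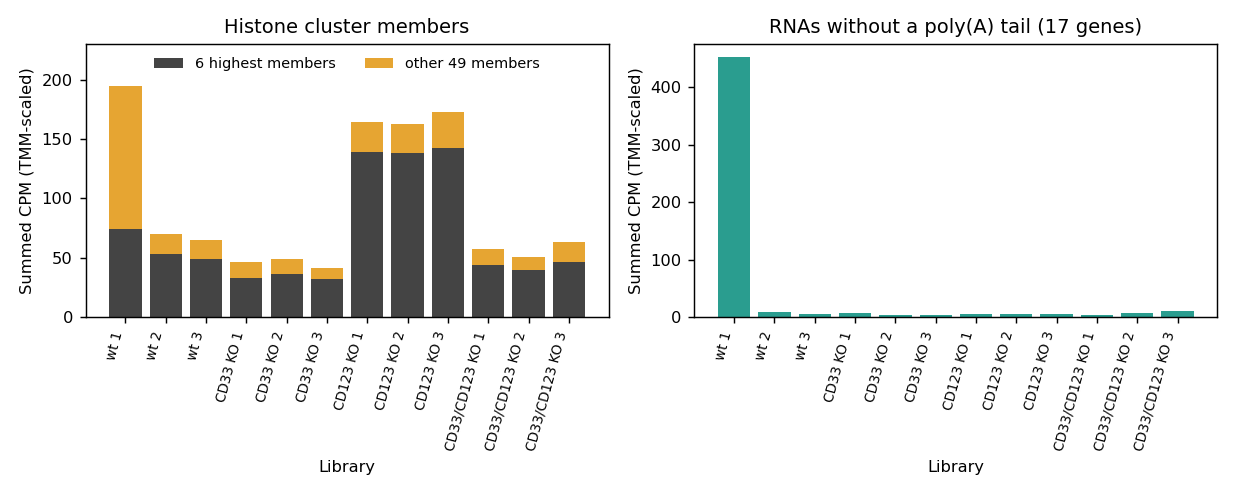
Summed CPM per library (bars from 0) of the histone members, split into the 6 highest and the other 49 (left), and of 17 RNAs without a poly(A) tail (right). wt library 1 reaches 195 CPM on the left mainly through the other 49 members and 452 CPM on the right, while the CD123 KO libraries reach 163 to 172 CPM mainly through the 6 highest.

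Per kilobase of exon length in the table, over the mean of the 4 group means, the order was HIST1H2BK (39.5 CPM per kb), HIST1H2AC (15.2), HIST3H2A (10.9), HIST1H1C (8.98), HIST1H2BD (6.02), HIST2H2BE (4.59), HIST1H4C (3.13), HIST2H2AC (2.69), HIST1H2BC (2.65) and HIST1H2AG (2.48). The first 6 are also the 6 of highest CPM. The highest H3 genes were HIST1H3H (2.03 CPM per kb) and HIST1H3J (1.41), and the second H4 gene was HIST1H4H (2.27). HIST1H1E, at 1.68, was the second H1 gene. With the wt mean taken over libraries 2 and 3, HIST1H1E was at 0.607, HIST1H3J at 0.919, HIST1H3H at 1.50 and HIST1H4H at 1.80 CPM per kb. The first 7 genes kept their order, from 38.9 for HIST1H2BK to 2.56 for HIST1H4C, and HIST2H2BC (2.50) came eighth. Lengths are those of the table's gene models, and 50 members have a model under 800 bases.

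HIST1H2BK, an H2B gene, was at 26.8, 22.1 and 20.2 CPM in the libraries of wt, in the order 1 to 3, and at 14.6, 13.8 and 13.7 CPM in the CD33 KO clone. It was at 73.0, 73.0 and 74.4 CPM in the CD123 KO clone and at 23.8, 19 and 23.3 CPM in the double KO clone. The CD123 KO libraries were above all others and the CD33 KO libraries below all others, while wt and the double KO clone overlapped. The log2 fold change of the CD123 KO clone against wt was 1.70 (SE 0.08, adjusted p = 3.21e-13), and 1.79 without wt library 1 (adjusted p = 3.36e-16). Against the CD123 KO clone it fell by 2.39 on the log2 scale in the CD33 KO clone (adjusted p = 1.04e-15) and by 1.73 in the double KO clone (adjusted p = 4.78e-13).

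HIST2H2BE, an H2B gene of the HIST2 cluster, was at 13.9, 9.30 and 9.89 CPM in wt, at 5.14, 5.46 and 4.34 CPM in the CD33 KO clone, at 18.9, 18 and 20.2 CPM with CD123 KO and at 5.07, 5.99 and 6.30 CPM in the double KO clone. HIST1H2AC, an H2A gene, was at 8.53, 7.09 and 5.67 CPM in wt, at 3.60, 5.19 and 3.47 CPM in the CD33 KO clone, at 18.8, 16 and 16.7 CPM with CD123 KO and at 6.06, 4.73 and 3.99 CPM in the double KO clone. In both genes the CD123 KO libraries were above all others. HIST1H1C, a linker histone gene, was at 11.6, 5.46 and 4.57 CPM in wt, at 2.89, 2.85 and 2.86 CPM in the CD33 KO clone, at 12.0, 12.5 and 14.4 CPM with CD123 KO and at 2.77, 2.64 and 4.28 CPM in the double KO clone. Only wt library 1 came near the CD123 KO libraries. HIST1H2BD was at 7.28, 4.52 and 4.47 CPM in wt, at 1.71, 1.53 and 1.66 CPM in the CD33 KO clone, at 10.3, 11.4 and 9.77 CPM with CD123 KO and at 2.68, 3.12 and 3.76 CPM in the double KO clone, so that the 4 groups did not overlap. HIST3H2A departed from this order, with 5.79, 4.54 and 3.97 CPM in wt, 4.97, 7.23 and 5.70 CPM in the CD33 KO clone, 6.26, 7.16 and 6.53 CPM with CD123 KO and 3.55, 4.01 and 4.97 CPM in the double KO clone. Its CD33 KO and CD123 KO libraries overlapped.

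**Figure D3:**
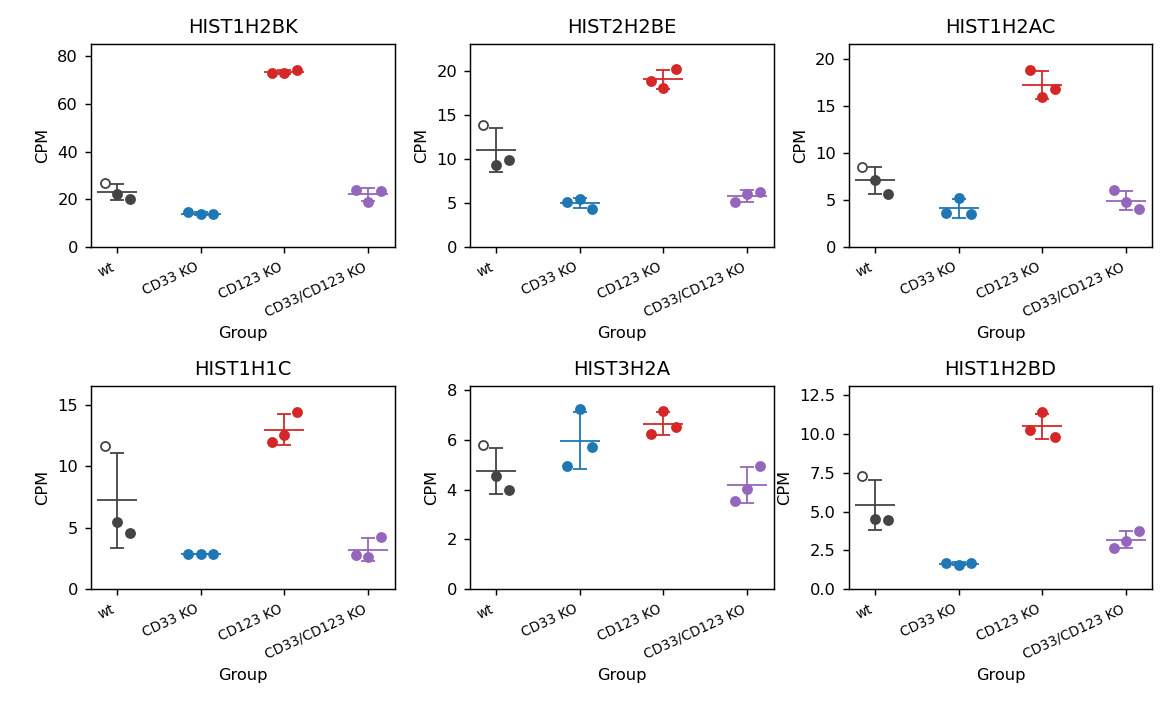
CPM by group for the 6 members of highest level; each point is a library, the open point is wt library 1, and the bars give the mean and SD of 3 libraries. The CD123 KO libraries are the highest in 5 genes, and in HIST3H2A they overlap those of the CD33 KO clone.

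Of the 55 members, 35 passed the low-count filter and were tested with edgeR among 14010 genes, and 20 were not. The tested members were 4 of H1, 8 of H2A, 14 of H2B, 4 of H3 and 5 of H4. To be called, a member needed an adjusted p below 0.05 and a log2 fold change beyond 1.5 in either direction, as the series design sets it. Shares of all genes called are given for the main fit and the fit without wt library 1, and not for other fits. The comparisons with wt share the wt libraries, and those with the CD123 KO clone share its libraries. P-values measure the spread between the 3 libraries of a group, which the labels do not tie to separate cultures.

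The CD123 KO clone had 2 members called higher and 1 lower than wt, against 2.62% and 2.73% of all genes and 5.35% in either direction, and the median log2 fold change of the 35 was 0.20, against 0.01 for all genes. HIST1H2BK and the H2A gene HIST1H2AK were higher. HIST1H2AK was at 0.436, 0.0923 and 0.158 CPM in wt and at 0.408, 0.644 and 0.691 CPM in the CD123 KO clone (log2 fold change 1.75, SE 0.47, adjusted p = 0.00224). The groups overlapped through wt library 1. The CD123 KO libraries, where it is high, brought HIST1H2AK past the low-count filter. Its call is therefore no separate support for a higher level in that clone. HIST1H2BH, an H2B gene, was lower, at 0.238, 0.112 and 0.167 CPM against 1.06, 0.388 and 0.410 CPM in wt, and it fell by 1.63 on the log2 scale (SE 0.51, adjusted p = 0.0079). It passed the filter through libraries where it is high and through none of the CD123 KO clone. This call, too, is no separate support for a lower level there. At an adjusted p under 0.05 alone, 8 members rose and 1 fell, against 29.6% and 29.9% of all genes. Each of the 6 highest members was among those 8: HIST1H2AC rose by 1.30 (SE 0.16, adjusted p = 2.93e-06), HIST1H2BD by 1.01, HIST1H1C by 0.94, HIST2H2BE by 0.83 and HIST3H2A by 0.52 on the log2 scale. These values were 1.41, 1.22, 1.36, 1.00 and 0.64 when wt library 1 was left out.

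Without wt library 1, 6 members were called higher in the CD123 KO clone, against 2.76% of all genes, and the median log2 fold change of the 35 was 0.83. HIST1H2BK and HIST1H2AK were called here too, although HIST1H2AK was not called without wt library 2 (log2 fold change 1.20, adjusted p = 0.0515). HIST1H2BC, HIST1H3A, HIST1H3D and HIST1H4H joined them without wt library 1, while HIST1H2BH was no longer called. The low-count filter was kept from all 12 libraries. HIST1H3A was at 0.306, 0.364 and 0.381 CPM in the CD123 KO clone and at 0.685 CPM in wt library 1. Elsewhere it was at no more than 0.289 CPM. It passed the filter through the libraries where it is high, so its call is no separate support for a higher level in that clone. The split of the calls depended on the wt library left out: 1 was higher and 6 were lower without wt library 2, and 2 were higher and 4 lower without wt library 3. HIST1H2BC, whose start site lies beside that of HIST1H2AC, was at 2.99, 0.425 and 0.441 CPM in wt and at 1.53, 2.01 and 2.50 CPM in the CD123 KO clone. Its log2 fold change was 1.07 (adjusted p = 0.179) with all libraries and 2.24 (adjusted p = 1.34e-06) without wt library 1. HIST1H3D moved from 0.69 to 1.83, HIST1H4H from 0.62 to 1.60 and HIST1H3A from 0.97 to 2.28. At an adjusted p alone 16 members rose and 1 fell, against 28.6% and 28.1% of all genes. The group of highest mean was wt for 35 of 55 members with all libraries, and the CD123 KO clone for 41 of 55 without wt library 1. All CD123 KO libraries were above all others in 6 members with wt library 1 and in 19 without it. No share over all genes is given for these counts of highest means and libraries, so they are descriptions only.

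In the CD33 KO clone 9 members were called, all lower than wt, against 6.5% of all genes called lower and 8.45% called in all. There were 18 when wt library 2 or wt library 3 was left out, and 4 when CD33 KO library 2 or 3 was. The median log2 fold change was -1.41, against -0.02 for all genes. They were HIST1H2BD (which fell by 1.66, SE 0.17, adjusted p = 2.99e-09), HIST1H2BJ, HIST1H1D, HIST1H2BL, HIST2H2AC, HIST3H2BB, HIST1H1B, HIST1H2AI and HIST1H1E, of which the last 3 were called in only 3, 3 and 2 of the 12 fits that each left out 1 library. Without wt library 1 only HIST1H1D of these was called, against 6.38% of all genes called lower, and the median was -0.53. HIST1H1D, a linker histone gene, was at 2.43, 0.351 and 0.284 CPM in wt and at 0.0336, 0.0300 and 0.0905 CPM in the CD33 KO clone, where 2 of the 3 libraries were below the worth of 3 counts. It fell by 3.76 on the log2 scale with all libraries (adjusted p = 0.00441) and by 2.51 without wt library 1 (adjusted p = 0.000894). Libraries where they are high brought HIST1H1D, HIST1H2BL and HIST3H2BB past the low-count filter. Their calls are thus no separate support for a lower level in this clone. With wt library 1 left out, HIST1H2BD fell by 1.45 (adjusted p = 3.29e-09), just short of the fold threshold. Of the other highest members, HIST1H1C fell by 1.24, HIST2H2BE by 1.12, HIST1H2AC by 0.80 and HIST1H2BK by 0.69 on the log2 scale, below the fold threshold but past the adjusted p (0.00799, 6.88e-08, 0.000696 and 4.67e-07). With wt library 1 left out these log2 fold changes were -0.82, -0.95, -0.69 and -0.60. At an adjusted p alone 14 members fell and HIST3H2A rose, by 0.34, against 32.5% and 30.6% of all genes. The numbers were 10 and 1 without wt library 1, where 31.5% of all genes fell and 29.6% rose.

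In the double KO clone 3 members were called lower than wt, HIST1H2BH, HIST1H2BL and HIST3H2BB, against 7.36% of all genes called lower and 9.21% called in all. Over the 12 fits that each left out 1 library they were called in 9, 9 and 7. All 3 passed the low-count filter through libraries where they are high. Their calls are therefore no separate support for a lower level in the double KO clone. There were 13 calls without wt library 2, 12 without wt library 3 and 1 without library 1 or 2 of the double KO clone. Without wt library 1 edgeR called 0 members, against 7.35% of all genes called lower. At an unadjusted p under 0.05, 6 were lower and 0 higher. No share of all genes is given for that rule, so the 6 cannot be set against a background. HIST1H2BL was at 2.43, 0.332 and 0.441 CPM in wt and at 0.0433, 0.240 and 0.173 CPM in this clone. HIST3H2BB was at 0.747, 0.129 and 0.284 CPM in wt, and at 0.0866 CPM and then 0 in the libraries of this clone. The median log2 fold change of the 35 was -1.08, and -0.37 without wt library 1. Of the 6 highest members, HIST2H2BE fell by 0.90 (SE 0.14, adjusted p = 6.79e-06) and HIST1H2BD by 0.72, while the log2 value of HIST1H2BK was -0.03 (SE 0.09, adjusted p = 0.756). The log2 values of HIST2H2BE, HIST1H2BD and HIST1H2BK were -0.75, -0.52 and 0.05 without wt library 1.

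**Figure D4:**
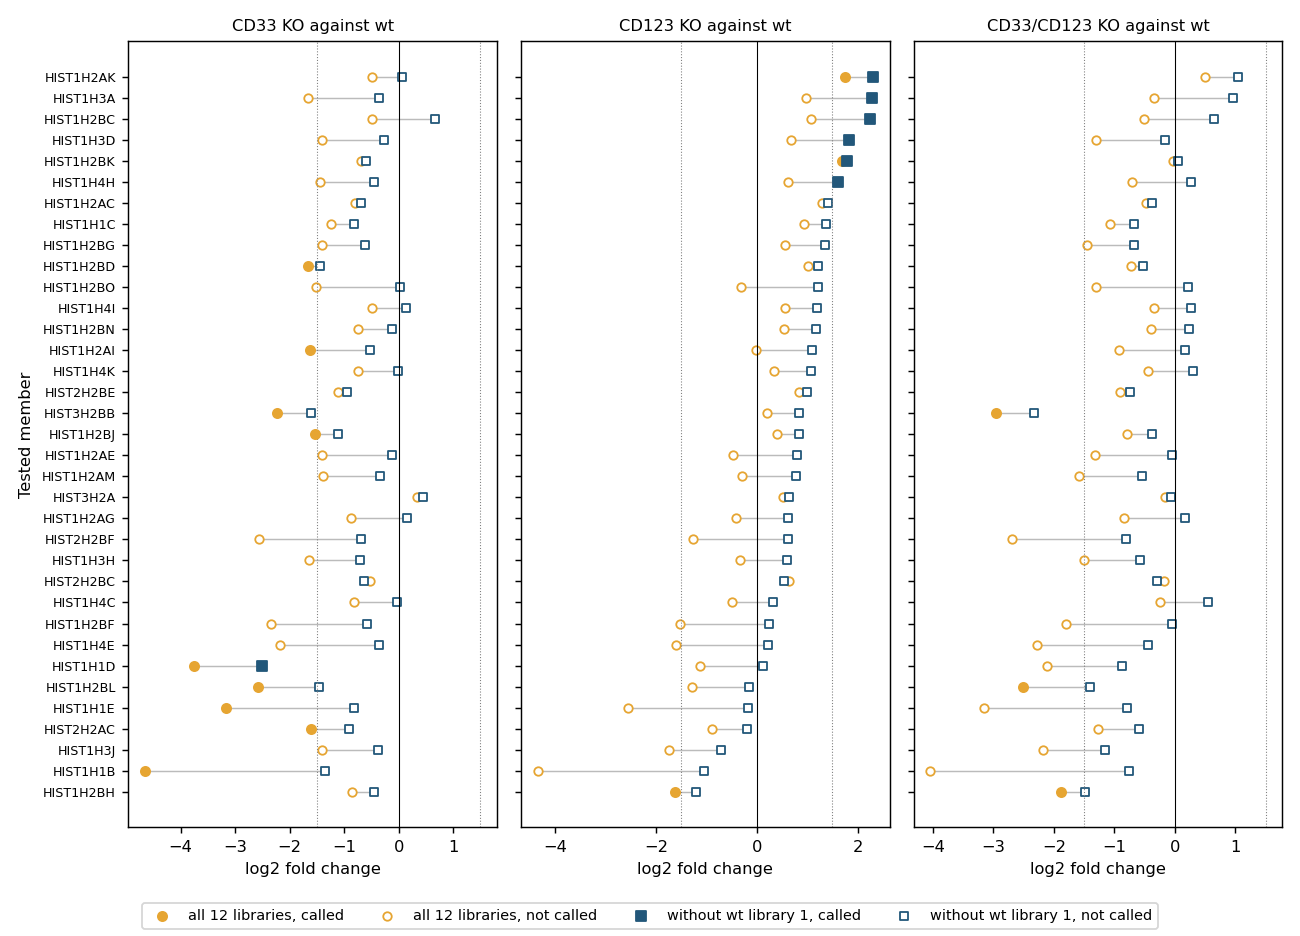
Log2 fold change against wt of the 35 tested members in each clone, with all 12 libraries (circles) and without wt library 1 (squares); filled points were called and dotted lines mark the threshold of 1.5. Without wt library 1 most points lie further right, and 6 members are called higher in the CD123 KO clone.

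The comparisons of clones with each other do not use the wt levels in the fold change, although wt enters the shared estimate of the spread and the low-count filter. The CD33 KO clone had 15 members called, all lower than the CD123 KO clone, against 6.14% of all genes called lower and 7.45% called in all, and the median log2 fold change was -1.30, against -0.02 for all genes. Their libraries did not overlap in 23 of the 35 tested members. No share over all genes is given for this count, so it is a description only. By adjusted p the first were HIST1H2BK, HIST1H2BD (which fell by 2.67, SE 0.16, adjusted p = 1.61e-13), HIST2H2BE (-1.94), HIST1H2AC (-2.09), HIST1H2BJ (-1.94), HIST1H2AK (-2.24), HIST1H1C (-2.18) and HIST1H2BG (-1.97). The other 7 were HIST1H3A, HIST3H2BB, HIST1H3D, HIST1H4H, HIST1H2AI, HIST1H1D and HIST1H2BC. Of these, HIST1H3A and HIST3H2BB passed the low-count filter only through CD123 KO libraries and wt library 1, where they are high. HIST1H2AK also passed it through the CD123 KO libraries, where it is high, and HIST1H1D passed it through no CD33 KO library. The calls of these members are no separate support for a lower level in the CD33 KO clone. The same 15 were called without wt library 1, against 6.15% of all genes called lower. Over the 12 fits that each left out 1 library, HIST1H1D and HIST1H2BC were called in 3 each, HIST1H2AI in 5, HIST1H4H and HIST3H2BB in 11 each and the other 10 in all 12. HIST3H2A was at -0.17 (SE 0.14, adjusted p = 0.286).

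The double KO clone had 8 members called, all lower than the CD123 KO clone, against 6.7% of all genes called lower and 7.64% called in all, with a median of -0.99. They were HIST1H2BK, HIST2H2BE (which fell by 1.73, SE 0.13, adjusted p = 1.82e-10), HIST1H2BD (-1.73), HIST1H2AC (-1.78), HIST1H1C (-2.02), HIST1H2BG (-2.01), HIST3H2BB and HIST1H3D (-1.98). All 8 were also called without wt library 1, with HIST1H2BC added, against 6.8% of all genes called lower. Over the 12 fits that each left out 1 library, however, HIST1H3D was called in 4 and HIST3H2BB in 9. HIST3H2BB was lost without CD123 KO library 3 and without libraries 2 and 3 of the double KO clone. It passed the low-count filter only through wt library 1 and CD123 KO libraries 1 and 3. Between the clones with an edited CD33, edgeR called 0 of 35 members, against 3.18% of all genes, and DESeq2 and limma-voom called 0 as well. There were 3 at an unadjusted p under 0.05, a rule for which no share of all genes is given. At an adjusted p alone HIST1H2BK (0.66) and HIST1H2BD (0.94) were higher and HIST3H2A (-0.51) was lower in the double KO clone, against 13.5% and 14.5% of all genes.

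**Figure D5:**
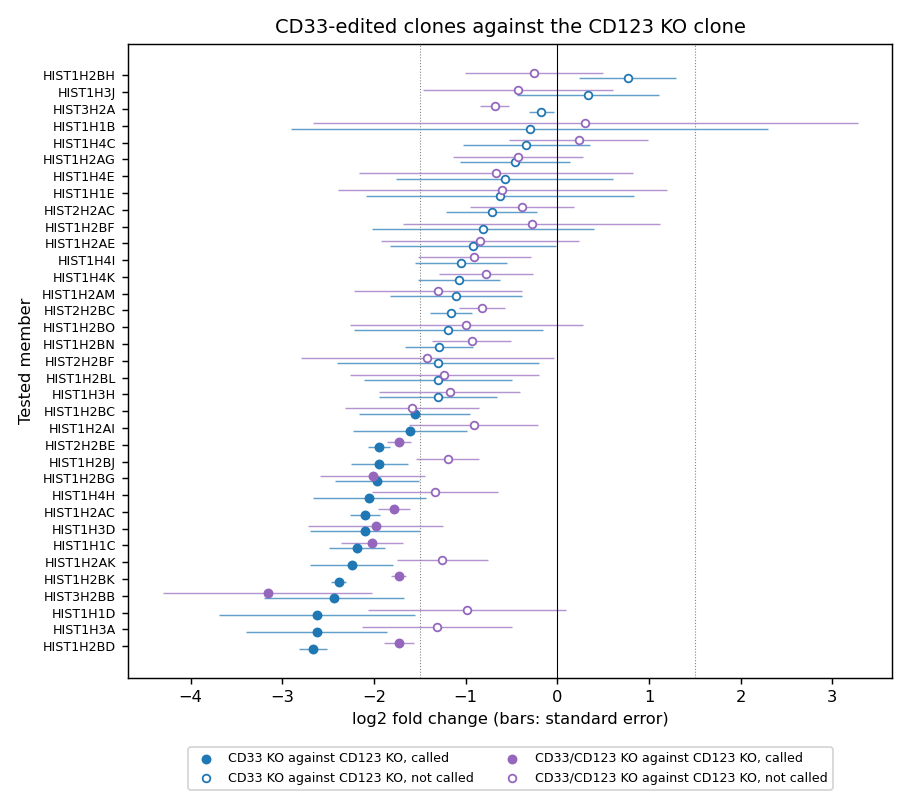
Log2 fold change (bars: standard error) of the 35 tested members in the CD33 KO and the double KO clone against the CD123 KO clone; filled points were called and dotted lines mark the threshold of 1.5. Nearly all points lie left of 0, and the narrowest bars belong to members of highest level such as HIST1H2BK.

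The members form 10 divergent pairs whose start sites lie 240 to 323 bases apart. In HIST1H2BC and HIST1H2AC both genes were higher in the CD123 KO clone than in wt libraries 2 and 3, by 4.66 and 2.69 times in mean CPM. In HIST2H2BE and HIST2H2AC only the first was, by 1.98 times against 0.867 for the second. HIST2H2AC was called lower in the CD33 KO clone with all wt libraries (2.23 ± 1.79 CPM in wt, 0.615 CPM in the clone) but not without wt library 1, where the wt mean was 1.19 CPM and the log2 fold change -0.92. For HIST1H2AK and HIST1H2BN, the latter named after its value was seen, they were 4.65 and 2.28 times. These ratios carry no test of a difference within a pair.

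The non-histone genes around the HIST1 cluster gave other medians, a difference that was not tested. The 45 tested genes within 2 Mb of the cluster on either side had a median log2 fold change against wt of 0.58 in the CD33 KO clone, 0.34 with CD123 KO and 0.61 in the double KO clone. The 29 tested HIST1 members stood at -1.41, -0.01 and -1.08, and without wt library 1 at -0.45, 1.08 and -0.16.

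Replication-independent histone genes, whose RNA usually carries a tail, were read from a list of 16, of which 10 were tested. H1F0, a linker histone gene linked to differentiated cells, was at 38.7, 37.6 and 39.6 CPM in wt, at 5.17, 5.37 and 5.07 CPM in the CD33 KO clone, at 26.2, 28.2 and 23.3 CPM with CD123 KO and at 3.90, 2.64 and 4.68 CPM in the double KO clone. It was called lower in the CD33 KO clone, where it fell by 2.89 (SE 0.10, adjusted p = 5.85e-18), and in the double KO clone, where it fell by 3.36, and no other gene of the list was called. In the CD123 KO clone it fell by 0.58 (adjusted p = 3.01e-06), where the 6 highest members rose. H3F3B, which encodes histone H3.3, was chosen after its values were seen: it rose by 0.28 in the CD123 KO clone and fell by 0.19 in the CD33 KO clone (adjusted p = 4.31e-07 and 5.37e-05). H3F3A was listed at 0 in every library.

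Genes of S phase, histone delivery and histone RNA processing were read from lists. Of 34 S phase and replication genes, 29 fell and 1 rose in the CD123 KO clone against wt at an adjusted p under 0.05 alone, against 29.9% and 29.6% of all genes, with a median log2 fold change of -0.64. None passed the fold threshold in edgeR. At an unadjusted p under 0.05 the numbers were 31 and 1, with no share of all genes given for that rule. In the CD33 KO clone 21 fell and 3 rose (median -0.26), against 32.5% and 30.6% of all genes. In the double KO clone 20 fell and 3 rose (median -0.16), against 29.8% and 28.8% of all genes. The replication helicase gene MCM5, chosen after its values were seen, was at 267 to 281 CPM in wt and at 141 to 153 CPM in the CD123 KO clone, where it fell by 0.89 (SE 0.04, adjusted p = 1.26e-15). Of 22 histone chaperone genes 16 fell and 2 rose in the CD123 KO clone, among them ASF1B and CHAF1A, named like SLBP after their values were seen, which deliver histones to new DNA and fell by 0.81 and 0.74. Of 25 genes of histone gene transcription and stem-loop processing 11 fell and 5 rose. SLBP was at 146, 143 and 144 CPM in wt and at 116, 115 and 113 CPM in the CD123 KO clone, where it fell by 0.33 (adjusted p = 5.33e-08). Of 17 cleavage and polyadenylation genes 8 fell and 3 rose. edgeR called none of the processing, polyadenylation or chaperone genes in a comparison with wt. Their part in the histone levels was not tested.

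Markers of other cell types were low throughout, apart from the endothelial list, which summed to 36.4 to 41.9 CPM in the CD123 KO clone and to 9.72 to 17.5 CPM elsewhere. Only 1 of its 4 genes was at a mean of at least 5 CPM, and CDH5 was at 0 in every library. The myeloid markers summed to 4543 to 4759 CPM in the CD123 KO clone, to 2944 to 2966 CPM in wt and to 3683 to 3859 CPM in the other clones.

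Several members are near-identical copies, and their levels are uncertain. In the reference, 7 members shared more than 50% of their 50-base windows with another histone gene, among them HIST1H4K (100%), HIST1H2AM (86.3%), HIST1H2AJ (83.7%), HIST1H4J (81.2%) and HIST1H2AI (62.3%), while 25 members shared none. HIST1H2BK shared 22.6% and HIST2H2BE 8.1%. The copies HIST2H4A, HIST2H4B, HIST2H3A, HIST2H3C, HIST2H2AA3 and HIST2H2AA4, which share 97.1% to 100% of their windows, had no count in any library. HIST1H4I lies on the plus strand within the span of HIST1H2BK on the minus strand, and the sources used here do not say whether counting used the strand.

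By Pearson correlation of log2 CPM with the histone sum over the 12 libraries, the nearest other genes were CTBP1-AS2 (0.95), FAM103A1 (0.93) and CHTOP (0.93). Leaving out wt library 1, they were LOXHD1, BIRC7 and EPB41L4A (0.99 each over 11 libraries). The libraries of a clone are not independent points, so these values are descriptions, and those of CTBP1-AS2, an antisense gene, depend on how strand was counted.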

How the data were processed

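RNA was purified with a RNeasy kit and libraries were made with a directional kit after poly(A) selection, per the labels' protocols. The authors deposited 1 table of gene counts with no normalization: reads were aligned to hg19 with HISAT2 and counted with featureCounts, and edgeR was used, per the submitters' processing notes. Their versions and the strand and multimapping settings: not given in the sources used here. All 12 count columns were used, and 0 were left out. The Length column of the deposited table, in bases, gave levels per kilobase.

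Groups followed the labels, with libraries numbered in accession order. All 12 libraries shared 1 fit without covariates: filterByExpr, TMM scaling and the robust quasi-likelihood F-test of edgeR 4.0.16 in R 4.3.3, with Benjamini-Hochberg adjustment over 14010 genes in each comparison. With 8 residual degrees of freedom, the variation between libraries of a group came to a common coefficient of 5.41%. Standard errors come from the F statistic. The fit was tested on simulated data. Alternatives used limma 3.58.1 and DESeq2 1.42.0, other scalings, filters and thresholds, and each library left out. Leaving out wt library 1 together with CD33/CD123 KO library 3 was chosen after seeing the data, and so was the test of non-additivity. The weight put on the fit without wt library 1 also followed from the data. Libraries of a group differed by more than sampling noise (chi-square per gene of at least 2.40). Counting error only is covered by the value of 3 counts.

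The members, gene lists and tests were chosen with earlier results of these data known. The text names called members, up to 8 per direction and comparison; the highest by level per kilobase, also per class; those with the most and least even libraries; the highest whose transcripts pass or end at the stem-loop; called genes of the lists and abundant tailless RNAs; and the nearest genes by correlation. Any other gene is marked in the text as picked once its values were known. Stem-loops were matched by pattern in GENCODE v29 transcripts.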

Additional observations from a re-analysis of the deposited data

Results flagged for a closer look

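In 4 members the change that went with CD123 editing differed between the CD33-edited and the unedited background, by a test of the difference itself (CD33/CD123 KO minus CD33 KO, less CD123 KO minus wt, edgeR). HIST1H2BK rose by 1.70 in the CD123 KO clone against wt and by 0.66 in the CD33/CD123 KO against the CD33 KO clone, a difference of -1.04 on the log2 scale (SE 0.12, adjusted p = 3.63e-07). In HIST3H2A the changes were 0.52 and -0.51, a difference of -1.03 (adjusted p = 0.000363). HIST1H2AC had a difference of -0.98 (adjusted p = 0.00344) and HIST2H2BE one of -0.61 (adjusted p = 0.00852). None exceeded the fold threshold of 1.5. The same test passed for 49.3% of all 14010 genes, so that 4 of 35 members is below the background share. All 4 stayed under 0.05 without each library in turn, with a highest adjusted p of 0.0355, and each clone stands for 1 genotype.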

How the results depend on the processing

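No paired analysis was possible because the labels give the groups no shared replicate numbers. Members called in the CD33 KO clone against wt numbered 9, and 15 at adjusted p alone, 16 without a low-count filter, 3 at 1 CPM or more in 3 libraries, 2 with only the compared groups, 0 with glmTreat, 4 with limma-voom, 16 with DESeq2, 1 without wt library 1 and CD33/CD123 KO library 3, and 1 to 18 without each library in turn (18 without wt library 2 and without wt library 3, 4 without CD33 KO library 2 or 3). In the CD123 KO clone against wt the 3 became 9 at adjusted p alone, 5 at a log2 fold change over 1, 7 without a filter (2 higher, 5 lower), 1 at 1 CPM, 6 in a fit that is not robust (2 higher, 4 lower), 0 with glmTreat, 5 with DESeq2 (2 higher, 3 lower), 6 without both libraries (all higher) and 2 to 7 without each library. With limma-voom all 3 were higher. The split depended on the wt library left out: 6 higher and 0 lower without wt library 1, 1 and 6 without wt library 2, and 2 and 4 without wt library 3. In the CD33/CD123 KO clone against wt the 3 became 7 at adjusted p alone, 5 with upper-quartile and 5 with library-size scaling, 7 without a filter, 0 at 1 CPM, 9 in a fit that is not robust, 0 with only the compared groups, 0 with glmTreat, 11 with DESeq2, 1 without both libraries and 0 to 13 without each library (0, 13 and 12 without wt library 1, 2 and 3, and 1 without CD33/CD123 KO library 1 or 2). Against the CD33 KO clone the 0 became 3 at adjusted p alone, 1 without both libraries and 0 to 1 without each. Against the CD123 KO clone, glmTreat left 1 of 8 for the CD33/CD123 KO clone (6 to 9 without each library) and 4 of 15 for the CD33 KO clone (11 to 15). Apart from filters, thresholds and left-out libraries, the cause was not tested. Shares of all genes were not set beside these alternative counts.

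Of 885 alternative values of the 38 called gene changes, 737 kept their side of the thresholds, 148 lost it and 0 reversed. Those of HIST1H2BK, HIST1H2BD, HIST1H2AC and HIST2H2BE for CD33 KO against CD123 KO, and of HIST1H2BK in the CD33/CD123 KO against the CD123 KO clone, were called under every alternative run. Group means of the summed level were 67.3 to 131 CPM in wt, 44.0 to 47.6 in the CD33 KO clone, 163 to 168 in the CD123 KO clone and 54.6 to 60.8 in the CD33/CD123 KO clone without each library. The wt mean was 109.9 CPM with all libraries and 67.3 CPM without wt library 1. The 20 members below the low-count filter entered only the fit without a filter.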
